A study of Homo sapiens with 6 samples.

Results

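Death receptors, the ligand TRAIL, initiator and inflammatory caspases, the necroptosis effector MLKL and the apoptosis factor XAF1 were followed in A549, a lung adenocarcinoma line of human origin, at passages 6 to 8. The 9 genes were TNFSF10, TNFRSF10A, TNFRSF10B, FAS, CASP8, CASP1, CASP4, MLKL and XAF1, taken by symbol from the 58302 gene rows of the count table, each matching 1 row, and all 9 passed the filter on low counts. RNA sequencing covered 3 libraries of cells transfected with SNHG5, a long non-coding RNA that hosts small nucleolar RNAs, and 3 libraries of cells transfected with vector, described in the labels as biological replicates. Both groups were thus transfected A549 cells grown in RPMI medium with 10% serum, and untransfected cells were not analysed here. The series title places SNHG5 in migration, invasion and epithelial-mesenchymal transition of lung adenocarcinoma cells. The labels do not name the promoter that drove SNHG5 or say whether the cells were a clone, a pool or transiently transfected.

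In the extrinsic pathway of apoptosis, TRAIL (encoded by TNFSF10) or Fas ligand binds a death receptor on the cell surface, the receptor recruits the adaptor FADD, and FADD activates the initiator caspase encoded by CASP8. Where this caspase is not active, the kinase RIPK3, acting with RIPK1, can instead phosphorylate MLKL, which permeabilises the plasma membrane in necroptosis. CASP1 and CASP4 encode inflammatory caspases that cleave gasdermin D in pyroptosis, and XAF1 binds and counteracts the caspase inhibitor XIAP. TNFSF10, XAF1, CASP1, CASP4, CASP8, MLKL and FAS are all known to be inducible by interferons in human cells, and FAS and the TRAIL receptor genes are also p53 targets.

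The promoters of 3 of these genes are shown, chosen by their values from the 6 with lower, non-overlapping groups described below. TNFSF10 had a large difference, XAF1 a smaller and CASP8 a slight one. The sequences are from RefSeq on GRCh38.p14 and run from 250 bases before the annotated start to 20 bases from it, in the direction of transcription. TNFSF10 is at chr3:172523411-172523680 on the minus strand, XAF1 at chr17:6755197-6755466 on the plus strand, and CASP8 at chr2:201233213-201233482 on the plus strand. Capitals mark matches to GAAANNGAAA, a core of the interferon-stimulated response element, or to TTCNNNGAA, a core of the interferon gamma-activated site bound by STAT factors, searched on both strands over 300 bases in the windows matched to 6 of the 9 genes.
TNFSF10: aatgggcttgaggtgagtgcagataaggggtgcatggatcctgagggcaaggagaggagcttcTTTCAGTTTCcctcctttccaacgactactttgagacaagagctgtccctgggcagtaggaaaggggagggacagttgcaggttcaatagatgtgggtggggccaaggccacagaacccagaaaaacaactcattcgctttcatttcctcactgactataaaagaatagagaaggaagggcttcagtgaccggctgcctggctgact
XAF1: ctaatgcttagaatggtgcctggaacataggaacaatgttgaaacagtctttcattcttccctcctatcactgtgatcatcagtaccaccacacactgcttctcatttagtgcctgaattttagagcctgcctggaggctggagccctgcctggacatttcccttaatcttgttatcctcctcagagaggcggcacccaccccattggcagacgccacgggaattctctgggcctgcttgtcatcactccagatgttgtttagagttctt
CASP8: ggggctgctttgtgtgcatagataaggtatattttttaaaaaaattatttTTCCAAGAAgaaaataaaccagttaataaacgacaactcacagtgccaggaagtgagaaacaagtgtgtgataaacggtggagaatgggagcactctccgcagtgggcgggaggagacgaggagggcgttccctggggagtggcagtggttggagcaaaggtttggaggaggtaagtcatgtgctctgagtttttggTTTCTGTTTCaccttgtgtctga

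GAAANNGAAA was present in 3.57% of all 35116 RefSeq promoter windows of that length, and TTCNNNGAA in 7.66%. In TNFSF10 the first motif lay on the opposite strand from -187 to -178 relative to the start, which reads TTTCAGTTTC on the printed strand. In CASP8 it lay on the opposite strand from -3 to 7, which reads TTTCTGTTTC on the printed strand. The second motif lay from -200 to -192 as TTCCAAGAA, so that the matches did not overlap. CASP8 has 2 further windows in the table, and neither motif was found there or in the windows of XAF1, FAS, CASP4 and MLKL. These matches describe letters in the windows and do not show binding.

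Library totals ran from 13378079 to 16823958 counts in the overexpression libraries and from 14798193 to 16999604 in the controls, and the floor of detection, set at 3 counts, was 0.175 to 0.218 CPM (counts scaled to a common TMM-scaled library total, as for all CPM here). SNHG5 itself stood at 153.3, 126.5 and 62.9 CPM in overexpression 1 to 3, against 61.0, 101.3 and 55.1 CPM in controls 1 to 3. The groups overlapped in the gene that was to be overexpressed (log2 fold change 0.66, SE 0.37, edgeR quasi-likelihood adjusted p 0.746), and the library labelled overexpression 3 held less than control 2, so directions below are between libraries as labelled. The replicate 2 libraries had the lowest MALAT1 level and mitochondrial share of their groups. Control 2 held 28.1 CPM of the nuclear RNA MALAT1, against 410 and 372 CPM in controls 1 and 3. Overexpression 2 held 118 CPM, against 476 and 410 CPM in overexpression 1 and 3. Mitochondrial genes took 2.57% of counts in control 2 and 3.8% in overexpression 2, the lowest share of each group. NEAT1 did not set overexpression 2 apart, at 213, 136 and 102 CPM in overexpression 1 to 3. In controls 1 to 3 it stood at 203, 23.4 and 160 CPM. All 9 A549 and epithelial markers listed were above the floor in every library, with summed levels of 11220 to 15410 CPM in the overexpression libraries and 14482 to 19190 CPM in the controls. Of 5 leukocyte markers, PTPRC and CD3E had 0 counts throughout, and the summed level of 27.4 to 39.4 CPM in the overexpression libraries against 75.4 to 93.1 CPM in the controls was mostly CD68, a lysosomal glycoprotein also made outside leukocytes. Endothelial markers summed to 0 CPM in the overexpression libraries and at most 0.133 CPM in the controls, and fibroblast markers to 4.92 to 21 CPM against 10.2 to 20.2 CPM.

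None of the 9 genes passed the threshold of 0.05 in edgeR's quasi-likelihood test with Benjamini-Hochberg adjustment over all 15631 genes tested, where 0.102% of genes were called lower and 0.0256% higher. At an unadjusted p under 0.05 the count was 6, all with a lower fitted level in the overexpression libraries, against 4.41% of all genes with that direction and 2.09% with the other. The same 6 genes, TNFSF10, XAF1, CASP1, CASP4, CASP8 and MLKL, had groups that did not overlap, against 7.52% of all genes tested, while 6.04% of all genes and 0 of the 9 had higher, non-overlapping groups. Among these 6, CASP1 passed the filter on low counts only through its controls. With the replicate number as a block, TNFSF10, XAF1 and CASP1 passed as lower, against 0.441% of all genes. DESeq2 called these 3 and MLKL as lower, against 1.33% of the genes it tested, and limma-voom called 0, against 0.128% of all genes as lower. The median log2 fold change of the 9 genes was -0.82 and that of all genes tested 0.01. Ribosomal RNA genes took 1.04% to 1.14% of counts in the overexpression libraries and 0.8% to 0.852% in the controls. This share separated the groups too, and its part in the results was not tested.

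**Figure D1:**
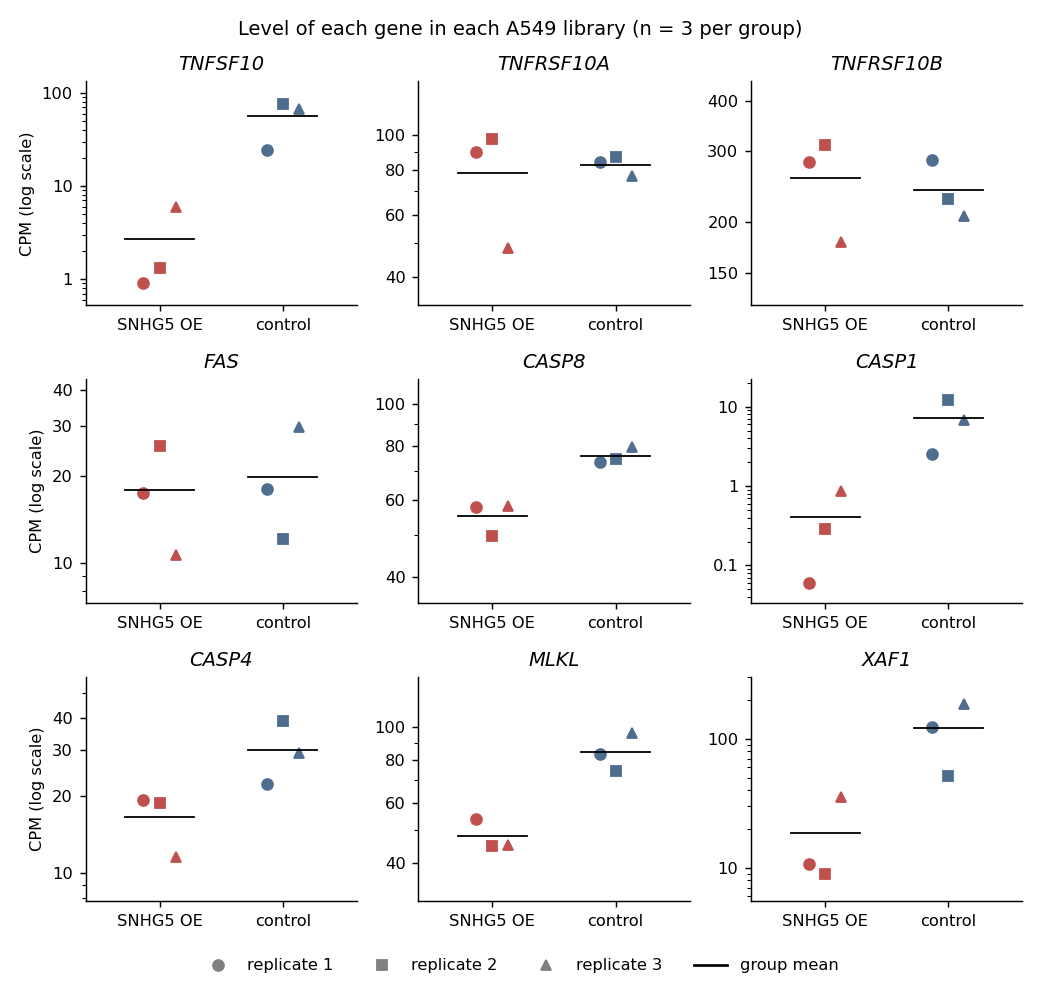
Level of each of the 9 genes in CPM on a log axis (each panel with its own range), in the 3 SNHG5 overexpression libraries (red) and the 3 control libraries (blue), with symbols for replicate numbers and lines for group means. The groups are apart for TNFSF10, CASP8, CASP1, CASP4, MLKL and XAF1 and overlap for TNFRSF10A, TNFRSF10B and FAS.

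TNFSF10 (ENSG00000121858, chromosome 3, 172505508 to 172523507, minus strand), which encodes TRAIL, had 15, 18 and 102 counts in overexpression 1 to 3, or 0.910, 1.31 and 5.94 CPM. In controls 1 to 3 it had 364, 1175 and 1089 counts, or 24.3, 77.1 and 67.1 CPM. The lowest control held 4.09 times the level of the highest overexpression library, the widest such gap among the 9 genes. Overexpression 3 was the highest of its group and control 1 the lowest of the controls. The mean was 2.72 ± 2.79 CPM in overexpression libraries and 56.1 ± 28.1 CPM in controls (SD, n = 3 each), 20.4-fold lower in the fit. The log2 fold change was -4.35 (SE 0.77, 95% interval -6.13 to -2.56, edgeR adjusted p 0.108), and -4.59 with the replicate block (SE 0.48, edgeR adjusted p 0.0289). Same-numbered pairs differed by -4.55, -5.75 and -3.47 on the log2 scale. Without overexpression 3 the difference was -5.66 and passed (edgeR adjusted p 0.0218), and without control 2 it was -4.05 (edgeR adjusted p 0.32). In bulk RNA, fewer cells carrying a transcript and less of it per cell cannot be told apart.

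The genes of the TRAIL receptors had overlapping groups. TNFRSF10A (chromosome 8, 23190452 to 23225126, minus strand), 1 of the pair of TRAIL receptors with a death domain, stood at 89.7, 97.9 and 48.4 CPM in overexpression 1 to 3 and at 84.4, 87.2 and 77.0 CPM in the controls. TNFRSF10B (chromosome 8, 23020133 to 23069179, minus strand), the other one, stood at 281.7, 311.5 and 178.9 CPM in the overexpression libraries and at 285.1, 228.9 and 207.7 CPM in the controls. For both genes overexpression 3 was the lowest of all 6 libraries, while overexpression 2 was the highest. Log2 fold changes were -0.07 for TNFRSF10A (SE 0.27, 95% interval -0.71 to 0.56) and 0.10 for TNFRSF10B (SE 0.26, 95% interval -0.49 to 0.69), with edgeR adjusted p of 0.941 and 0.915. The intervals leave room for log2 differences down to about -0.71 for TNFRSF10A and up to about 0.69 for TNFRSF10B. Without overexpression 3 the TNFRSF10A value was 0.18, and without overexpression 2 the TNFRSF10B value was -0.07, so neither had a stable sign.

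FAS (chromosome 10, 88990582 to 89015785, plus strand), the receptor of Fas ligand, stood at 17.5, 25.5 and 10.7 CPM in overexpression 1 to 3 and at 18.1, 12.1 and 29.6 CPM in controls 1 to 3. The groups overlapped fully, and both the second highest and the lowest value belonged to overexpression libraries. The log2 fold change of -0.16 had a wide error (SE 0.41, 95% interval -1.12 to 0.80, edgeR adjusted p 0.915). Same-numbered pairs pointed in different directions, with -0.05, 1.07 and -1.46 on the log2 scale, and the fitted value was 0.11 without overexpression 3 and 0.24 without control 3.

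CASP8 (chromosome 2, 201233443 to 201287711, plus strand), the initiator caspase of death receptor signalling, had the least relative spread within groups. It stood at 57.9, 49.7 and 58.2 CPM in the overexpression libraries and at 73.8, 74.6 and 79.9 CPM in the controls. All overexpression libraries lay below all controls, by at least 1.27 times. The means were 55.3 ± 4.82 CPM in overexpression libraries and 76.1 ± 3.30 CPM in controls (SD, n = 3 each). The log2 fold change was -0.46 (SE 0.17, 95% interval -0.86 to -0.07), which did not pass over all genes (edgeR adjusted p 0.699), and its sign held without each library in turn, between -0.50 and -0.40.

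Of the inflammatory caspases, CASP1 (chromosome 11, 105025443 to 105035250, minus strand), which processes interleukin 1 beta, was scarce. It had 1, 4 and 15 counts in overexpression 1 to 3 and 38, 187 and 112 counts in controls 1 to 3. In CPM these were 0.0607, 0.291 and 0.873 in the overexpression libraries and 2.53, 12.3 and 6.90 in the controls, with overexpression 1 under the floor of 3 counts. The groups lay at least 2.9 times apart. CASP1 passed the filter on low counts only through its controls, which left little room for any direction but lower. The fitted log2 fold change was -4.10 (SE 0.85, 95% interval -6.05 to -2.14, edgeR adjusted p 0.152), and -4.16 with the replicate block (SE 0.56, edgeR adjusted p 0.0478). With so few counts its size is imprecise, and it ran from -5.36 without overexpression 3 to -3.48 without control 2. CASP1 shares near-identical sequence with the neighbouring CARD16, which had 0 counts in each overexpression library and 0, 10 and 6 in controls 1 to 3, so the assignment of some reads between them is uncertain.

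CASP4 (chromosome 11, 104942866 to 104969436, minus strand), a sensor of intracellular lipopolysaccharide, stood at 19.2, 18.6 and 11.5 CPM in overexpression 1 to 3 and at 22.1, 38.9 and 29.2 CPM in controls 1 to 3. The groups did not overlap, though control 1 held only 1.15 times the level of overexpression 1. The log2 fold change was -0.87 (SE 0.30, 95% interval -1.56 to -0.18, edgeR adjusted p 0.627), and -0.65 without control 2. The difference between same-numbered libraries was -0.21 for replicate 1, -1.06 for replicate 2 and -1.33 for replicate 3.

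MLKL (chromosome 16, 74671855 to 74700960, minus strand), the pseudokinase that executes necroptosis, stood at 53.8, 45 and 45.1 CPM in the overexpression libraries and at 83.4, 74.4 and 96.3 CPM in the controls. Every overexpression library lay below every control, by at least 1.38 times. Means were 48.0 ± 5.03 CPM in overexpression libraries and 84.7 ± 11.0 CPM in controls (SD, n = 3 each), 1.77-fold lower in the fit. The log2 fold change of -0.82 (SE 0.19, 95% interval -1.26 to -0.38) did not pass in edgeR (adjusted p 0.21, and 0.23 with the replicate block) and passed in DESeq2 (adjusted p 0.0287). It was nearly the same in size without each library in turn, from -0.91 to -0.72.

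XAF1 (chromosome 17, 6755447 to 6775647, plus strand) had counts of 178, 123 and 612 in overexpression 1 to 3 and 1861, 783 and 2996 in controls 1 to 3. In CPM these were 10.8, 8.95 and 35.6 in the overexpression libraries and 124.0, 51.4 and 184.5 in the controls. The groups were apart by 1.44 times at their nearest, overexpression 3 against control 2. Means were 18.5 ± 14.9 CPM in overexpression libraries and 120.0 ± 66.7 CPM in controls (SD, n = 3 each), 6.48-fold lower in the fit. The log2 fold change was -2.70 (SE 0.65, 95% interval -4.19 to -1.20, edgeR adjusted p 0.252). With the replicate block it was -2.80 and passed (SE 0.28, edgeR adjusted p 0.0284). Same-numbered libraries differed by -3.51, -2.5 and -2.37 on the log2 scale. Leaving out 1 library gave values from -3.60 without overexpression 3 (edgeR adjusted p 0.05, not below the threshold) to -2.25 without control 3 (edgeR adjusted p 0.68).

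**Figure D2:**
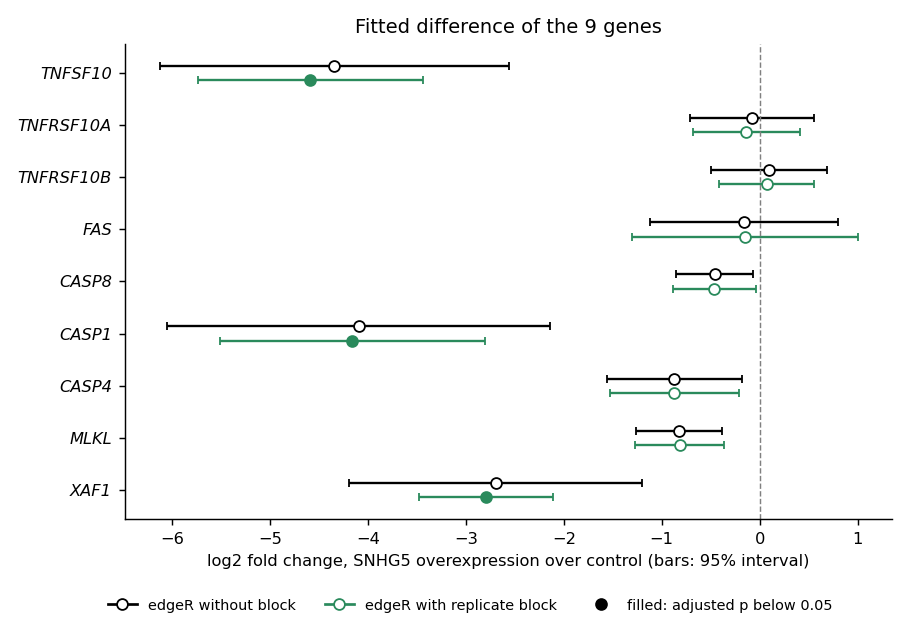
Log2 fold change of the 9 genes, SNHG5 overexpression over control, with 95% intervals, from edgeR without a block (black) and with the replicate block (green), where filled symbols have an adjusted p below 0.05. TNFSF10, CASP1 and XAF1 lie at -4.35, -4.10 and -2.70 without the block and pass only with it, while TNFRSF10A, TNFRSF10B and FAS lie near 0.

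The kit used keeps no strand information, so reads of antisense partners cannot be told apart. PRAL, on the opposite strand, shares 38.3% of the exon bases of XAF1, and had 1, 2 and 3 counts in overexpression 1 to 3 and 11, 7 and 25 in controls 1 to 3. It thus held few counts beside XAF1 as the authors counted them. ACTA2, an actin gene, shares 8.93% of the exon bases of FAS on the opposite strand (log2 fold change -0.18, edgeR adjusted p 0.815). RHOBTB2 shares 1.3% of those of TNFRSF10B on the opposite strand (log2 fold change -0.05, edgeR adjusted p 0.965), and AC100861.1 shares 9.01% of those of TNFRSF10A, with 52 to 66 counts in the overexpression libraries and 63 to 78 in the controls. CASP1, CASP4, CASP8 and MLKL had no overlapping gene in the table.

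To order the genes by level, CPM were divided by the length of the merged exons in GENCODE release 29. In the overexpression libraries TNFRSF10B was highest (34.7 to 60.4 CPM per kb), followed by TNFRSF10A (16.4 to 33.2), and both lay above all other members. MLKL (7.9 to 9.45 CPM per kb) and CASP8 (6.86 to 8.03) came next and overlapped. FAS, XAF1, CASP4 and TNFSF10 followed, each overlapping its neighbour in this order, and CASP1 was lowest at 0.0164 to 0.236 CPM per kb. In the controls TNFRSF10B (40.3 to 55.3 CPM per kb) and TNFRSF10A (26.1 to 29.5) had the highest means, and XAF1 overlapped TNFRSF10A. XAF1 (7.76 to 27.9) and TNFSF10 (6.98 to 22.2) came next, overlapping their neighbours up to MLKL (13.1 to 16.9). CASP8 (10.2 to 11 CPM per kb) overlapped neither MLKL nor FAS but lay within the ranges of XAF1 and TNFSF10. FAS, CASP4 and CASP1 were last, each overlapping its neighbour. By group mean, TRAIL mRNA was at place 8 of the 9 genes in the overexpression libraries and at place 4 in the controls, where its range overlapped those of XAF1, MLKL and CASP8.

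**Figure D3:**
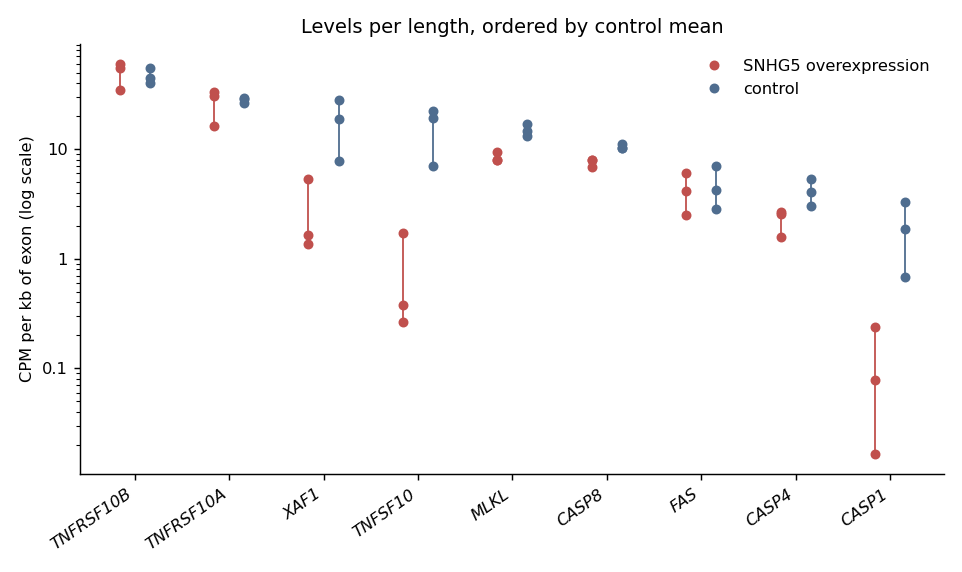
Level of each gene as CPM per kb of merged exons on a log axis, in the 3 SNHG5 overexpression libraries (red) and 3 control libraries (blue), ordered by the control mean, with lines from the lowest to the highest library. TNFRSF10B and TNFRSF10A have the highest means in both groups, and TNFSF10 lies at 0.262 to 1.71 in the overexpression libraries against 6.98 to 22.2 in the controls.

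The course over the 6 libraries was compared as the mean absolute difference of centred log2 CPM. Among the 9 genes, the nearest to each other were TNFRSF10A and TNFRSF10B (0.146), CASP8 and MLKL (0.176), and CASP4 and CASP8 (0.308). TNFSF10 and CASP1 lay 0.381 apart, TNFSF10 and XAF1 1.02, and TNFSF10 and its receptors 2.23 and 2.33. These distances follow partly from the size of the difference between the groups. Of all other genes with a mean log2 CPM of at least 2, the nearest to TNFSF10 were PLEKHA4 and GBP4, a guanylate-binding protein (0.273 and 0.302). PLEKHA4 stood at 1.64, 1.38 and 5.53 CPM in overexpression 1 to 3 and at 27.7, 75.5 and 48 CPM in controls 1 to 3. The nearest to CASP1 were BST2, which encodes tetherin, and CMPK2 (0.322 and 0.326), and the nearest to XAF1 were BTN3A3, a butyrophilin, and TRANK1 (0.259 and 0.355). MLKL was nearest to BCL2L13 and EDN1 (0.0772 and 0.0805), CASP8 to STAT3 and POLA2 (0.0385 and 0.0538), and CASP4 to UBFD1 and MAD2L1BP (0.147 and 0.159). The receptors had other neighbours, RNF114 and LSR for TNFRSF10A (0.0431 and 0.0542), SIM2 and KHNYN for TNFRSF10B (0.0354 and 0.0475), and PLA2G15 and PDP1 for FAS (0.123 and 0.155). STAT3, a signal transducer, held 275, 255 and 278 CPM in overexpression 1 to 3 and 350, 341 and 367 CPM in controls 1 to 3, a log2 fold change of -0.39 (SE 0.17, edgeR adjusted p 0.746).

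The rest of the cell death machinery was followed in 7 lists of 107 genes in the table, of which 86 were tested. None of them passed in edgeR over all genes, with or without the replicate block. At an unadjusted edgeR p under 0.05, 14 had a lower fitted level and 0 a higher one, against 4.41% and 2.09% of all genes. With the block these were 17 and 1, against 980 and 472 of all 15631 genes. TNFRSF1B and ZBP1, among the 14, passed the filter on low counts only through their controls. DESeq2 called 4 as lower, TNFRSF1B, RBCK1, ZBP1 and BCL2L13, against 1.33% of the genes it tested, and limma-voom called 0, against 0.128% of all genes as lower. The median log2 fold change of the 86 genes was -0.19.

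Among ligands, receptors and decoys, 9 of 14 were tested, with a median log2 fold change of -0.23. TNFRSF1B, a receptor of tumour necrosis factor without a death domain, stood at 0.427 ± 0.0746 CPM in overexpression libraries and 2.97 ± 1.20 CPM in controls (SD, n = 3 each), with non-overlapping groups. It had 6, 7 and 7 counts in overexpression 1 to 3 and 31, 66 and 41 in controls 1 to 3. Its log2 fold change was -2.78 (SE 0.44), with an edgeR adjusted p of 0.0779, and 0.0511 with the replicate block. TNFRSF1A, the receptor with a death domain, was at -0.51 (SE 0.39), NGFR at -1.67 (SE 0.82) and TNFRSF25 at 0.50 (SE 0.37), all with overlapping groups. FASLG, the ligand of FAS, and the soluble TRAIL decoy gene TNFRSF11B had 0 counts in every library.

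The 15 adaptors and regulators were all tested, with a median log2 fold change of -0.39. Of these, 7 had lower, non-overlapping groups, against 7.52% of all genes, and 6 a lower fitted level at an unadjusted p under 0.05, against 4.41%. RBCK1 and RNF31, subunits of the linear ubiquitin ligase that acts on the tumour necrosis factor receptor complex, were at -0.97 (SE 0.21) and -0.72 (SE 0.24). RBCK1 stood at 96.1 ± 9.83 CPM in overexpression libraries and 189 ± 36.1 CPM in controls (SD, n = 3 each; edgeR adjusted p 0.161). TRADD, an adaptor with a death domain, was at -1.40 (SE 0.41) and TRAF2, a ubiquitin ligase recruited to the same complex, at -0.46 (SE 0.17).

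Of 14 other caspases and apoptosome genes 12 were tested, with a median of -0.25. CASP10, the paralog and genomic neighbour of CASP8, was at -0.78 (SE 0.32, edgeR adjusted p 0.743). Its groups were barely apart, with 3.57 CPM in overexpression 2 against 3.60 CPM in control 1. PIDD1 was at -0.40 (SE 0.31) with overlapping groups. DFFA, an inhibitor of the apoptotic nuclease, was at 0.17 (SE 0.16) with higher, non-overlapping groups. CASP5, the closest paralog of CASP4, had 1 count over all 6 libraries.

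In the necroptosis list RIPK3, the kinase upstream of MLKL, had 0 counts in all 6 libraries, so its level was at most the floor of 0.175 to 0.218 CPM. ZBP1, a sensor of Z-form nucleic acids that acts through RIPK3, had 0, 0 and 9 counts in overexpression 1 to 3 and 44, 68 and 74 counts in controls 1 to 3. Overexpression 3 was the 1 library of its group with counts, and still lay below every control. The fitted log2 fold change of ZBP1 was -4.37 (SE 0.93, edgeR adjusted p 0.16) and rests on these few counts. Without overexpression 3 it passed (edgeR adjusted p 0.0202). Both overexpression libraries left had 0 counts, and the control mean of 3.98 CPM was 19.9 times their mean floor of 0.2 CPM. That floor takes 3 counts per library, and the ratio is one of means, so single controls lay nearer. The library left out, overexpression 3, held 0.524 CPM, against 2.93 CPM in control 1, the lowest control. ITPK1 and USP21 were at -0.73 (SE 0.37) and -0.50 (SE 0.28), and PELI1 at 0.60 (SE 0.34). The 10 tested genes had a median of -0.23.

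Of 22 inflammasome and pyroptosis genes 13 were tested, with a median log2 fold change of -0.04. GSDMD, the pore-forming substrate of CASP1 and CASP4, stood at 9.91 ± 8.11 CPM in overexpression libraries and 26.0 ± 10.2 CPM in controls (SD, n = 3 each), at -1.39 (SE 0.56, edgeR adjusted p 0.743) with overlapping groups. The value was -2.31 without overexpression 3 (edgeR adjusted p 0.052) and -1.02 without control 2 (edgeR adjusted p 0.903). The inflammasome adaptor PYCARD was at -0.61 (SE 0.37) and DPP8 at 0.43 (SE 0.25). IL1A, which encodes interleukin 1 alpha, held 20.4, 22.9 and 0.466 CPM in overexpression 1 to 3 and 6.2, 4.0 and 2.4 CPM in controls 1 to 3. Overexpression 3 was thus the lowest of all libraries and the other 2 of its group the highest, and the log2 fold change of 1.79 had an SE of 1.02 (edgeR adjusted p 0.746).

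The inhibitors of apoptosis and their antagonists were the 1 list with a median above 0, at 0.19 over 9 tested genes, and no unadjusted p under 0.05. DIABLO was at 0.32 (SE 0.23), BIRC6 at 0.41 (SE 0.30), BIRC5 at -0.29 (SE 0.28) and SEPT4 at -0.75 (SE 0.81), the last turning to 0.19 when 1 library was left out. Of the 21 genes of the BCL2 family 18 were tested, with a median of -0.42. BCL2L13 stood at 116 ± 11.5 CPM in overexpression libraries and 215 ± 20 CPM in controls (SD, n = 3 each), at -0.89 (SE 0.18, edgeR adjusted p 0.145) with groups apart. BBC3, BCL2L11 and BAK1, which are pro-apoptotic, were at -1.09 (SE 0.45), -0.90 (SE 0.35) and -0.50 (SE 0.26), with overlapping groups. Other pro-apoptotic genes went both ways, also with overlapping groups. PMAIP1 was at -0.71 (SE 0.53), BAD at -0.63 (SE 0.35), BOK at -0.51 (SE 0.41) and BID at -0.33 (SE 0.38). HRK was at 1.18 (SE 0.99) and BMF at 1.05 (SE 0.70), while BAX hardly differed at -0.09 (SE 0.19). Of the 18 tested genes, 13 had a lower fitted level and 5 a higher one.

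**Figure D4:**
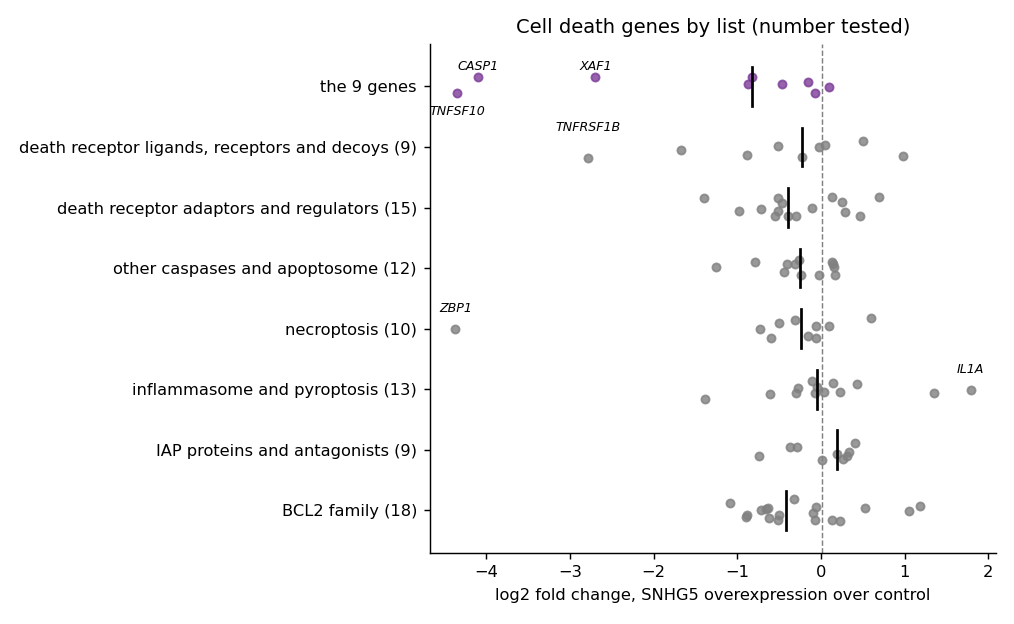
Log2 fold change, SNHG5 overexpression over control, of the 9 genes (purple) and of the tested genes of 7 cell death lists (grey), with a black line at each list's median and a dashed line at the median of all genes tested. The list medians run from -0.42 for the BCL2 family to 0.19 for the inhibitors of apoptosis, and single genes beyond 1.7 on this scale are named.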

How the data were processed

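RNA was sequenced from 3 SNHG5 overexpression and 3 vector control cultures of A549 cells. Per the labels' protocols, RNA was column-purified and paired-end libraries were made with Illumina's TruSeq RNA kit. The submitters' processing notes name FastQC, HISAT2 and GRCh38. For the counter, the versions and the strand setting, the sources used here give nothing. The table deposited by the authors holds raw gene counts and FPKM. The deposited FPKM rest on a length that equalled the sum of distinct annotated exons for 92.1% of genes holding 20 or more counts per library, a median of 1.52 times the merged exons, and were not used. Coordinates are those of the deposited table.

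The test was edgeR 4.0.16 under R 4.3.3 (TMM factors, filterByExpr, robust quasi-likelihood test, two-sided, Benjamini-Hochberg over 15631 genes, threshold 0.05). The SE is the log2 fold change divided by the square root of F, in absolute value. CPM and floors of 3 counts use TMM-scaled totals, and floors cover counting error only. It was checked on simulated data. An exact permutation test of 3 against 3 libraries cannot go below p = 0.1 and was not used. Alternatives were the replicate block, other size factors, no or a stricter filter (1 CPM in every library of a group), DESeq2 1.42.0, limma-voom (limma 3.58.1) and leaving out each library. Libraries with the same number deviated together from their group means (correlations of 0.35, 0.16 and 0.29, against -0.34 to 0.12 for other combinations). Each exceeded 0.1, though overexpression 2 with control 1 (0.12) did too, so the numbers were taken as a possible pairing only. The deviations of a group sum to 0, so these correlations are not independent of each other. The main test has no block, and blocked values stand beside a member's result where they change its call. For other genes they are given only in part. PLEKHA4, GBP4, CMPK2 and BTN3A3, named for a near course, passed with the block (edgeR adjusted p 0.0408, 0.0284, 0.0284 and 0.0333).

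The members and lists were chosen with earlier results of these data known. Named were all members, the overlapping genes, of each list the 4 tested genes with the smallest p and any past the threshold, and for each member the 2 genes with the nearest course (log2 CPM with a prior count of 2). Other genes named, FASLG, TNFRSF11B, CASP5, CARD16, RIPK3 and CD68 among them, were chosen after their values were seen. Of the genes that this rule takes, 1 is left out of the text.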

Additional observations from a re-analysis of the deposited data

How the results depend on the processing

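The count of 0 lower members in edgeR became 3 with the replicate block and 4 with DESeq2, and was 0 to 1 without 1 library, the 1 being TNFSF10 without overexpression 3. It stayed 0 with other size factors, no filter, the stricter filter and limma-voom, and no member was called higher under any alternative. Lower genes over the whole table numbered 16, and became 69 under the replicate block, 72 unfiltered, 240 by DESeq2 and 0 to 144 without 1 library. Higher genes numbered 4, against 22 with DESeq2 and 0 to 20 without 1 library. Among the pathway genes the count of 0 lower became 1 unfiltered, 4 by DESeq2 and 0 to 1 without 1 library (ZBP1, without overexpression 3). The count over all genes was 0 in both directions without overexpression 2, without control 2 or without control 3, so calls depended on single libraries, and the cause was not tested. The replicate block changed no other call of a member. Of 108 values for the 9 members under alternatives, 8 gained a call and 100 stayed on their side of the threshold, among which the uncalled values of FAS (2), TNFRSF10B (2) and TNFRSF10A (1) turned in sign. Of 586 values for the 49 other genes taken by the naming rule, 26 gained a call and 560 stayed on their side. Depth limits CASP1 and ZBP1, at or near the floor of 0.175 to 0.218 CPM in overexpression libraries.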
